A study of Mus musculus with 48 samples.

Results

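The libraries described here compare macrophages from hearts infarcted on the first day after birth (P1) with those from sham-operated hearts 3 days after surgery. They were chosen by their titles, P1_MI_3D against P1_Sham_3D, each with a library of the infarct (IZ), the border (BZ) and the remote zone (RZ), which gave 6 of the 42 libraries of the series with read lists. The mice were C57BL/6. Myocardial infarction (MI) was made by tying the left anterior descending coronary artery, and sham hearts had the same operation without the tie, so that IZ, BZ and RZ of a sham heart are the matching places of an uninjured ventricle. The treatment field of the labels names infarction for all 6 libraries, and the surgery is taken from the titles. The zones were cut by hand, the same zone of several hearts was pooled, and live CD45+F4/80+ leukocytes were sorted, a gate that takes in macrophages and monocytes. CoBATCH then tagged DNA carrying H3K27ac in these cells with an antibody-guided transposase. There was 1 pool of hearts per surgery, so each group is 1 library, its 3 zones come from the same hearts, and no value below has a replicate of its own.

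H3K27ac is a histone mark laid down at active promoters and enhancers, and its level around a gene is commonly read as enhancer activity. In the newborn heart the macrophages are mostly long-lived resident cells of embryonic origin, known for scavenger receptors, complement production and clearance of dying cells. After coronary ligation, monocytes enter from the blood and differentiate in the injured muscle, passing through Ly6c-high inflammatory states to states that express Arg1, Trem2 and Spp1. The neonatal heart at P1 can regenerate, an ability lost within days.

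The deposited lists held 3205676 unique read pairs for the 6 libraries. MI IZ, BZ and RZ had 692549, 485307 and 369851 read pairs, and sham IZ, BZ and RZ had 549230, 382001 and 726738. Between 41.02% and 45.86% of them fell in 27160 H3K27ac regions called on the series, and the libraries shared the same 4 flow cells. Gene windows ran from 50 kb before to 30 kb behind each gene, the span the study used, and read pairs in regions inside a window were counted as the signal around the gene. Neighbouring genes therefore share read pairs, and a window's value may come from another gene's element. Markers of the sorted cells were present in every library, with Adgre1, which encodes F4/80, at 123, 75 and 77 read pairs in MI and 88, 76 and 123 in sham, and Ptprc, which encodes CD45, at 147, 83 and 68 against 101, 70 and 126. The 14 genes of the macrophage identity list, Spi1 and Csf1r among them, reached 7219 to 7918 CPM in MI and 7836 to 8148 in sham, where the CPM of a list is its share of the library's read pairs in regions. Mice of both sexes had neonatal surgery, and read pairs on the Y chromosome made up 0.0146% to 0.0175% of the MI libraries and 0.0223% to 0.0251% of the sham libraries, without overlap. The surgery and the sexes of the pooled hearts therefore cannot be told apart in any ratio of MI to sham below.

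The MI IZ library stood apart from the other 5. Over the 8162 gene windows that averaged 20 read pairs or more, the median absolute log2 difference between libraries was 1.12 to 1.23 times that expected from counting alone in the 5 comparisons with MI IZ, and 0.983 to 1.09 times in the other 10. For MI against sham it was 0.206 against an expected 0.174 in IZ, 0.204 against 0.203 in BZ and 0.198 against 0.191 in RZ. In BZ and RZ the typical window thus differed between MI and sham by about what counting gives, and in IZ by slightly more. The 3 zones are given side by side below, so that each result can be read with and without the MI IZ library.

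**Figure D1:**
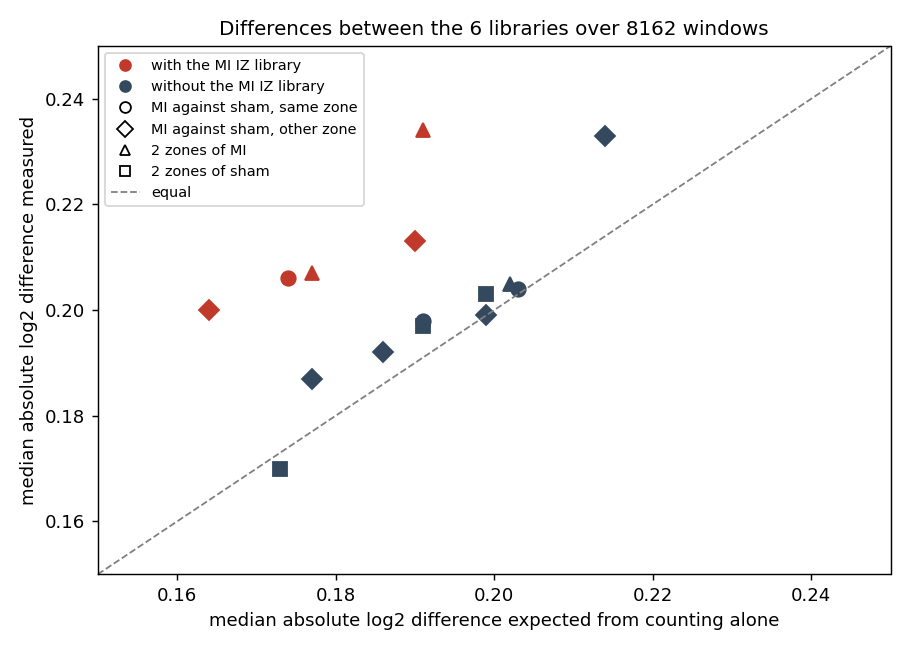
Median absolute log2 difference between each of the 15 combinations of the 6 libraries over 8162 gene windows (vertical axis) against the difference expected from counting alone (horizontal axis). Marker shape gives the kind of comparison. Red points, with the MI IZ library, lie above the dashed line of equality by 1.12 to 1.23 times, and dark points, without it, lie at 0.983 to 1.09 times.

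The resident macrophage list was the group that differed most clearly. Its 5 genes, Lyve1, C1qa, Mgl2, Fcrls and Cbr2, are the markers that the study names for this state, citing earlier work. The study used them to annotate cell clusters of the series that these samples belong to, so they are not independent evidence of a direction. Together their windows held 189, 210 and 202 read pairs in MI IZ, BZ and RZ and 287, 148 and 317 in sham. In CPM, MI IZ was at 638.2 (95% exact counting interval 550.5 to 736), MI BZ at 965.6 and MI RZ at 1191, whereas sham IZ, BZ and RZ were at 1208 (1072 to 1356), 877.9 and 1063. MI IZ was thus the lowest of the 6 libraries, and the other 5 lay between 877.9 and 1208. The ratio of MI to sham was 0.528 (0.437 to 0.637) in IZ, 1.1 (0.887 to 1.37) in BZ and 1.12 (0.934 to 1.34) in RZ. Within the infarcted hearts the level in IZ was 0.536 times that in RZ (0.437 to 0.657), against 1.14 (0.965 to 1.34) between the same places of sham hearts. These intervals, like all counting intervals here, cover counting error only, and reads without molecular identifiers are not certain to be independent molecules. Fewer resident cells in the pool and less of the mark per cell cannot be told apart in summed libraries.

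The spread between pools of hearts can only be borrowed from other groups. In the 18 other groups with 2 pools, the resident list differed between pools of the same group by a median of 1.24 times and at most 2.65 times, and 2 of the 18 differed by more than MI IZ and sham IZ did here. In each of these groups the read list of 1 pool held repeated lines, 9.67% to 32.16% of its lines, which were dropped. The read list of the other pool held 0.0%, as did all those of P1 day 3. Depth differed too, as with 48044 and 327646 read pairs in sham IZ of P1 at day 7. The spread between pools, here and for the lists below, may therefore include differences of processing and counting error. With 3 zone pairs a two-sided exact permutation test cannot go below p = 0.25, and the zones are not independent, so none was run. On each of the 4 flow cells alone the IZ ratio was 0.203, 0.561, 0.687 and 0.433. The flow cells are parts of the same 2 libraries and not repeats of the comparison. The intervals of the lowest, 0.0922 to 0.4, and of the highest, 0.502 to 0.937, did not overlap. The counting interval of the whole list may therefore be too narrow.

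**Figure D2:**
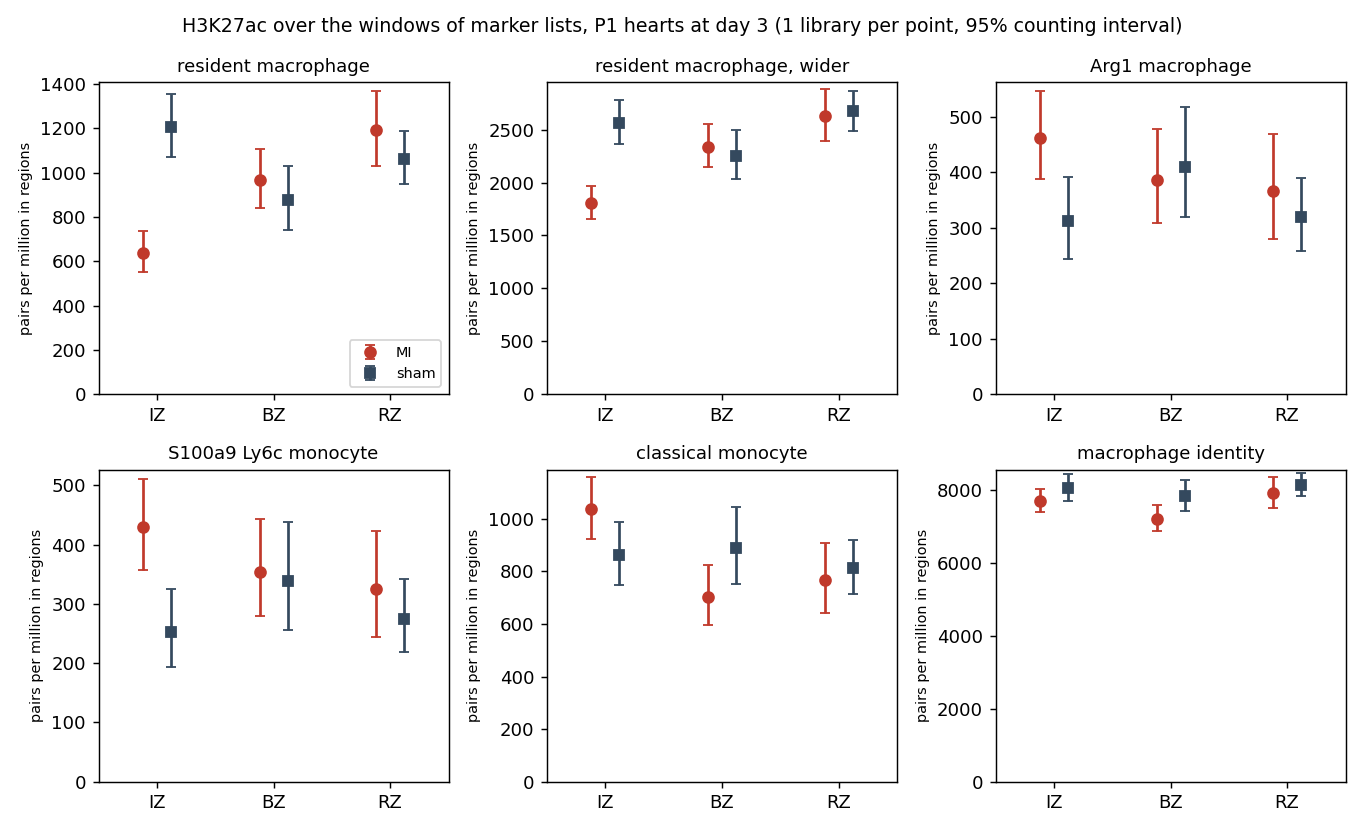
CPM of read pairs in regions (vertical axis, from 0) over the windows of 6 gene lists, by zone, with MI as red circles and sham as dark squares, 1 library per point and bars for the 95% counting interval. In the resident macrophage panel MI IZ lies at 638.2 and the other 5 libraries between 877.9 and 1208, while in the macrophage identity panel the 6 libraries lie between 7219 and 8148.

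All 5 members of the resident list were lower in MI IZ than in sham IZ. C1qa encodes a chain of the complement initiator C1q and shares its read pairs with its neighbours C1qb and C1qc. Its window held 54, 60 and 68 read pairs in MI IZ, BZ and RZ and 93, 41 and 101 in sham, and scaled to the library it was at 68.52, 101.8 and 147.5 CPM in MI and 144.9, 90.58 and 126.7 in sham. The log2 ratio of MI to sham was -1.05 in IZ, 0.16 in BZ and 0.21 in RZ. Mgl2, a C-type lectin receptor of alternatively activated macrophages, held 21, 28 and 29 read pairs in MI against 41, 27 and 42 in sham, with log2 ratios of -1.17, -0.31 and 0.24. Both genes had their lowest scaled level of the 6 libraries in MI IZ.

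Fcrls, an Fc receptor-like scavenger gene, held 19, 31 and 24 read pairs in MI and 32, 23 and 37 in sham, or log2 ratios of -0.96, 0.05 and 0.16. Cbr2, a carbonyl reductase gene, held 43, 52 and 36 against 62, 27 and 64, with log2 ratios of -0.79, 0.54 and -0.04. For these genes too the difference lay in IZ, and BZ and RZ were near or above sham. Lyve1, the hyaluronan receptor that names a resident population around vessels, was the member that differed least, with 52, 39 and 45 read pairs against 59, 30 and 73 and log2 ratios of -0.46, -0.00 and 0.09. Its only well-covered region lay at the promoter of the neighbouring gene Rnf141, where the log2 ratio in IZ was 0.06.

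None of these differences passed the test across all windows. In limma, which borrows the spread between pools from the whole series, the IZ estimate for C1qa was a log2 change of -1.07 (95% confidence interval -2.03 to -0.12) and that for Mgl2 was -1.24 (-2.42 to -0.07), both with an adjusted p of 0.999. These were 2 of the 5 members with an unadjusted p under 0.05, against 1.94% of all 10159 windows tested in IZ. The median limma log2 difference of the list in IZ was -1.03, against 0.01 for all windows tested. For the difference between IZ and RZ within MI, all 5 members were again lower in IZ, and 2 of the 5 had an unadjusted p under 0.05, against 3.05% of all windows. The test of whether the response itself differed between IZ and RZ gave 5 lower members, of which C1qa alone had an unadjusted p under 0.05, against 1.96% of all windows, and an adjusted p of 0.999 for each.

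The regions inside these windows placed the difference. At the C1q genes 1 region of 20500 bases, chr4:136879501-136900000, held nearly all read pairs of the window, with 54, 60 and 67 in MI and 92, 41 and 97 in sham, and its IZ ratio was 0.505 (0.346 to 0.698). At Fcrls the region chr3:87255001-87268000 covers the promoter and part of the gene body, and held 12, 24 and 21 read pairs in MI and 27, 19 and 26 in sham. MI IZ was the lowest library at both regions. The region across Cbr2 and its neighbour Dcxr held 16, 29 and 17 against 26, 12 and 37. In the Mgl2 window the well-covered region was intergenic, nearest to Asgr2, and was lower in both IZ and BZ, with 14 and 12 read pairs in MI against 23 and 21 in sham.

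A wider list of 10 genes linked to resident macrophages was lower in MI IZ by less. Its IZ ratio was 0.705 (0.626 to 0.793), or 0.748 (0.659 to 0.848) without C1qb and C1qc, whose read pairs C1qa in the first list shares, and its ratios in BZ and RZ were 1.04 and 0.984. Mrc1, the mannose receptor, held 76, 89 and 76 read pairs in MI and 108, 81 and 162 in sham, with log2 ratios of -0.78, -0.24 and -0.30. Stab1, a scavenger receptor, held 254, 210 and 175 against 273, 156 and 330, with log2 ratios of -0.40, 0.05 and -0.13. Vsig4, a complement receptor of tissue macrophages, went the other way in every zone in regions, with 27, 20 and 13 read pairs in MI against 10, 10 and 12 in sham and log2 ratios of 1.00, 0.55 and 0.78, but over its whole window the BZ ratio was -0.18. Gas6, a ligand of receptors for apoptotic cells, held 7, 15 and 14 against 9, 4 and 14, with log2 ratios of -0.51, 1.25 and 0.69, and so was also higher by the mean of the zones. In IZ, 8 of the 9 tested members were lower by limma and 1 was higher. The receptor gene Timd4 had too few read pairs in regions, and over its whole window it held 17, 20 and 14 in MI and 36, 16 and 44 in sham.

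The study's Arg1 and S100a9 lists, whose genes its authors also used to describe cell clusters of this series, were highest in MI IZ. The Arg1 list, Arg1, Trem2, Gpnmb, Spp1 and Igf1, describes macrophages of repair and phagocytosis. It stood at 462.6, 386.2 and 365.5 CPM in MI IZ, BZ and RZ and at 311.5, 409.3 and 318.7 in sham. The ratio was 1.48 (1.11 to 2) in IZ, 0.944 (0.678 to 1.32) in BZ and 1.15 (0.819 to 1.6) in RZ. MI IZ was the highest library, but sham BZ at 409.3 lay above MI BZ and MI RZ, so that the surgeries overlapped. In 6 of the 18 other groups, 2 pools of the same group differed by more than this IZ ratio.

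Trem2, a lipid-sensing receptor of phagocytic macrophages, carried much of the list's IZ difference. Its window held 70, 39 and 31 read pairs in MI and 28, 37 and 58 in sham, and the log2 ratio was 0.98 in IZ, -0.29 in BZ and -0.11 in RZ. The limma estimate in IZ was 1.01 (-0.06 to 2.08, adjusted p = 0.999). Of the 70 read pairs in MI IZ, 40 came from 1 region upstream at the start of the neighbouring gene B430306N03Rik, chr17:48316001-48326500, which held 40, 20 and 12 in MI and 16, 20 and 25 in sham. The region at the Trem2 promoter, chr17:48345501-48350000, held 14, 10 and 15 against 6, 11 and 20.

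Arg1, the arginase that names the list, did not differ in the same way, with 23, 14 and 5 read pairs in regions in MI and 21, 10 and 10 in sham and log2 ratios of -0.15, 0.09 and -0.17. Igf1, a growth factor gene, held 33, 26 and 19 against 17, 17 and 22, or 0.60, 0.22 and 0.53. Spp1, which encodes osteopontin, and Gpnmb, a glycoprotein gene of lysosome-rich macrophages, had too few read pairs in regions. Over their whole windows Spp1 held 46, 18 and 12 in MI and 11, 17 and 18 in sham, a log2 ratio of 1.54 in IZ and -0.27 and 0.30 in BZ and RZ. Gpnmb held 77, 36 and 43 against 30, 23 and 38, with 0.96, 0.25 and 1.05. On that scale the Arg1 list as a whole had an IZ ratio of 1.74 (1.47 to 2.07).

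By rule, promoters of up to 3 of the study's genes with a region at their start were searched for 15 motifs, which took in Trem2, Fcrls and Cbr2. Without exon bases, the promoters of Fcrls and Cbr2 held no match and are not printed. The promoter of Trem2 held matches and is shown. It is the RefSeq sequence of chr17:48346151-48346400 on GRCm38, plus strand, and the capitals mark a nuclear receptor NR4A motif, found as TGACCTTT on the reverse strand of AAAGGTCA, and an AP-1 motif TGANTCA, both searched on both strands. These motifs were held by 1.34% and 6.75% of 32851 RefSeq promoters and by 1.34% and 8.64% of the 5952 regions with a mean of at least 10 read pairs, each taken as 300 bases.
Trem2 promoter: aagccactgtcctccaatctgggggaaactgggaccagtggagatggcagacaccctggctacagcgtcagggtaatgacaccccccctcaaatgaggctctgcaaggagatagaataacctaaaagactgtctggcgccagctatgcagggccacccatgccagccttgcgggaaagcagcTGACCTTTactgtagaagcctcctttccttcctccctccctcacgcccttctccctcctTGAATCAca

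The S100a9 list, S100a9, S100a8, Lcn2, Cd177 and Wfdc21, holds 5 of the genes that the study names for a monocyte state. The study names Ly6c2 for this state too, and here Ly6c2 stands in the classical monocyte list instead, without values of its own. Lcn2, Cd177 and Wfdc21 are linked to granulocytes, whose own list is given below. The S100a9 list stood at 428.9, 354.1 and 324.3 CPM in MI IZ, BZ and RZ and at 252.6, 338.1 and 275.1 in sham. The ratio was 1.7 (1.24 to 2.35) in IZ, 1.05 (0.734 to 1.5) in BZ and 1.18 (0.822 to 1.68) in RZ, and MI IZ was again the highest library. Pools of the same group differed by more than this IZ ratio in 2 of 18 cases. On single flow cells the ratio was 1.89, 2.18, 1.59 and 0.877, so that it did not keep its direction on the last.

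Lcn2, an iron-sequestering acute phase gene, held 74, 43 and 37 read pairs in MI and 29, 36 and 53 in sham, a log2 ratio of 1.00 in IZ and -0.12 and 0.26 in BZ and RZ. Its limma estimate in IZ was 1.04 (0.18 to 1.90, adjusted p = 0.999). Its well-covered regions lay at neighbouring genes, with 19, 11 and 10 read pairs against 8, 7 and 15 inside Ciz1 and 13, 13 and 7 against 12, 7 and 13 at the promoter of Ptges2. Wfdc21 held 48, 29 and 18 against 29, 19 and 25 and was higher in all 3 zones, by 0.41, 0.21 and 0.29. S100a8 and S100a9 encode the calprotectin subunits, lie side by side and had too few read pairs in regions. Over the whole window S100a8 held 70, 25 and 10 in MI and 25, 27 and 26 in sham, with log2 ratios of 1.07, -0.46 and -0.41, and S100a9 held 48, 20 and 10 against 24, 25 and 28. Cd177, a surface protein gene of neutrophils, held 20, 5 and 6 over its whole window against 13, 8 and 14, with log2 ratios of 0.23, -0.84 and -0.25. All 3 genes thus had higher values than sham in IZ and lower values in BZ and RZ. Within MI the scaled level of S100a8 was 46.64, 23.72 and 12.4 CPM in IZ, BZ and RZ, and that of S100a9 was 31.98, 18.97 and 12.4.

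**Figure D3:**
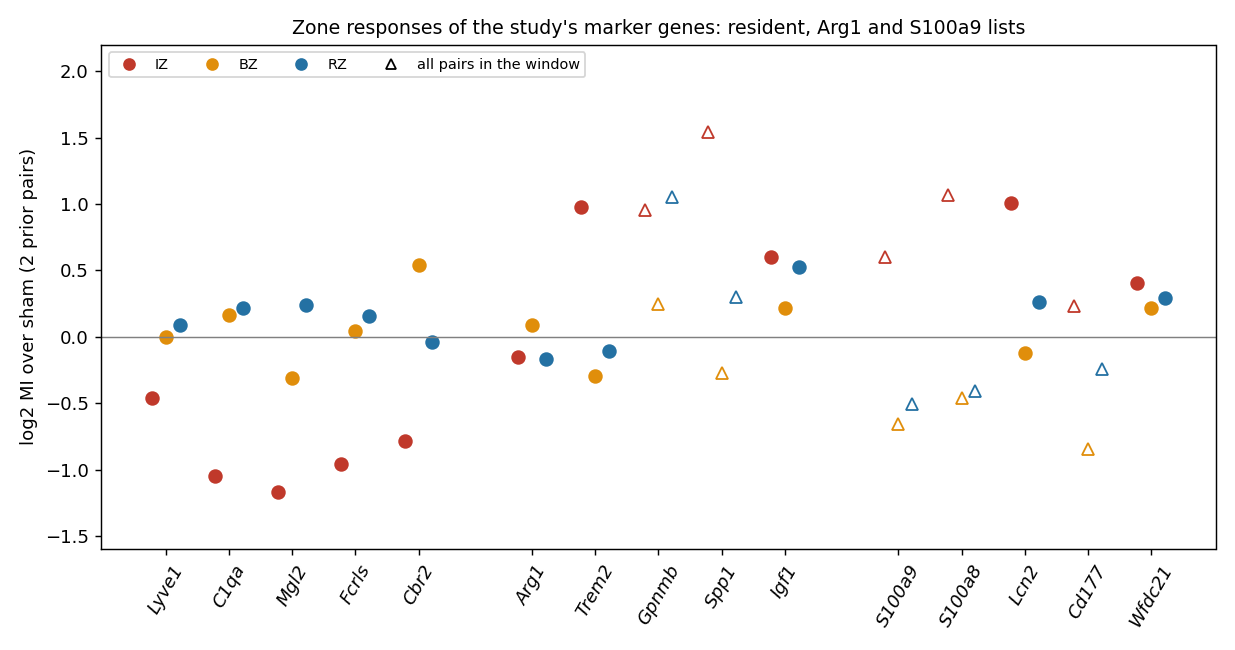
Log2 ratio of MI to sham (vertical axis, with 2 prior read pairs) for each gene of the resident, Arg1 and S100a9 lists, in IZ (red), BZ (orange) and RZ (blue). Filled circles count read pairs in regions, and open triangles count all read pairs in the window of genes with too few in regions. The 5 resident genes lie between -1.17 and -0.46 in IZ, and Trem2, Spp1, S100a8 and Lcn2 lie between 0.98 and 1.54.

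Among other leukocyte lists, the classical monocyte list had an IZ ratio of 1.2 (1 to 1.44) and a BZ ratio of 0.791 (0.627 to 0.997). Over whole windows, as a share of all read pairs of a library, the ratios were 1.35 (1.2 to 1.52) and 0.958 (0.825 to 1.11), so the lower BZ level was not seen there. In 12 of the 18 other groups 2 pools of the same group differed by more than the IZ ratio in regions, with a median pool ratio of 1.36. Of the 5 members tested in regions, 2 were higher and 3 lower by the mean of the zones. In IZ alone 3 of them were higher and 2 lower by limma. F13a1, coagulation factor XIII, was the 1 that was lower in all 3 zones, by -0.35, -0.56 and -0.60. Over whole windows 3 of the 9 members were higher in all 3 zones, against 12.1% of all windows, and 0 were lower, against 12.7%. F13a1 thus did not keep its direction in every zone there. The Ly6c-low monocyte list had ratios of 1.17 (1.05 to 1.3), 1.03 and 0.849 (0.75 to 0.96), but 10 of the 18 other groups had pools that differed by more than the IZ ratio, and over whole windows the RZ ratio was 0.945 (0.851 to 1.05). By the mean of the zones 2 of its 6 members were higher, Treml4 and Nr4a1, and 4 were lower. Treml4, a receptor of patrolling monocytes, held 78, 41 and 19 read pairs against 28, 32 and 49, or log2 ratios of 1.13, -0.02 and -0.54. Nr4a1, the orphan nuclear receptor that patrolling monocytes need, held 277, 150 and 118 against 170, 111 and 256, or 0.40, 0.05 and -0.32. The lower members were Ace, the study's own marker of this state, Spn, Itgal and Pou2f2.

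The antigen presentation list was at its lowest in MI IZ, at 570.7 CPM against 642.7 to 687.6 in the other 5 libraries, with ratios of 0.869 (0.695 to 1.09), 0.981 and 0.935. Over whole windows the IZ ratio was 0.843 (0.718 to 0.989), and 11 of the 18 other groups had pools farther apart than the IZ ratio in regions. The windows of its class II genes H2-Aa, H2-Ab1 and H2-Eb1 overlap and share read pairs, so they are not separate observations. In IZ H2-Ab1 held 16 read pairs against 31 in sham (log2 ratio -1.13) and H2-Eb1 held 15 against 27 (-1.03), while Cd74, the invariant chain, held 121 against 90 (0.13). In BZ H2-Eb1 held 11 read pairs against 20. In limma 0 of the 5 members had an unadjusted p under 0.05 in IZ.

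Markers of other cell types were also unequal in IZ. The 7 endothelial genes reached 943.4 to 1297 CPM in MI and 1002 to 1104 in sham, with an IZ ratio of 1.29 (1.1 to 1.53). The difference lay in Egfl7, an endothelial factor gene, with 84 read pairs in MI IZ against 34 in sham IZ, and in Pecam1, which leukocytes also express, with 261 against 167. The defining genes Cdh5, Tek, Emcn and Erg had too few read pairs in regions to be tested. The neutrophil list had an IZ ratio of 1.03 (0.903 to 1.17), with levels of 1539 to 1793 in MI and 1654 to 1821 in sham, and Ly6g was among 5 of its 10 genes below the minimum. Over the whole windows of all 10 genes the IZ ratio was 1.17 (1.06 to 1.29), and MI IZ was the highest library at 1417 CPM of all read pairs against 1104 to 1225 in the other 5. The 7 fibroblast genes had no region with read pairs in their windows, so that their level in regions says nothing. They had 91, 50 and 54 read pairs over their whole windows in MI and 44, 43 and 78 in sham, an IZ ratio of 1.64 (1.13 to 2.41). The T and NK cell list had an IZ ratio of 0.813, with levels of 786.3 to 919.8 in MI and 895.6 to 968.3 in sham, and the cardiomyocyte list had ratios of 0.965, 1.13 and 1.04. The part of other cells in the IZ differences was not tested.

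**Figure D4:**
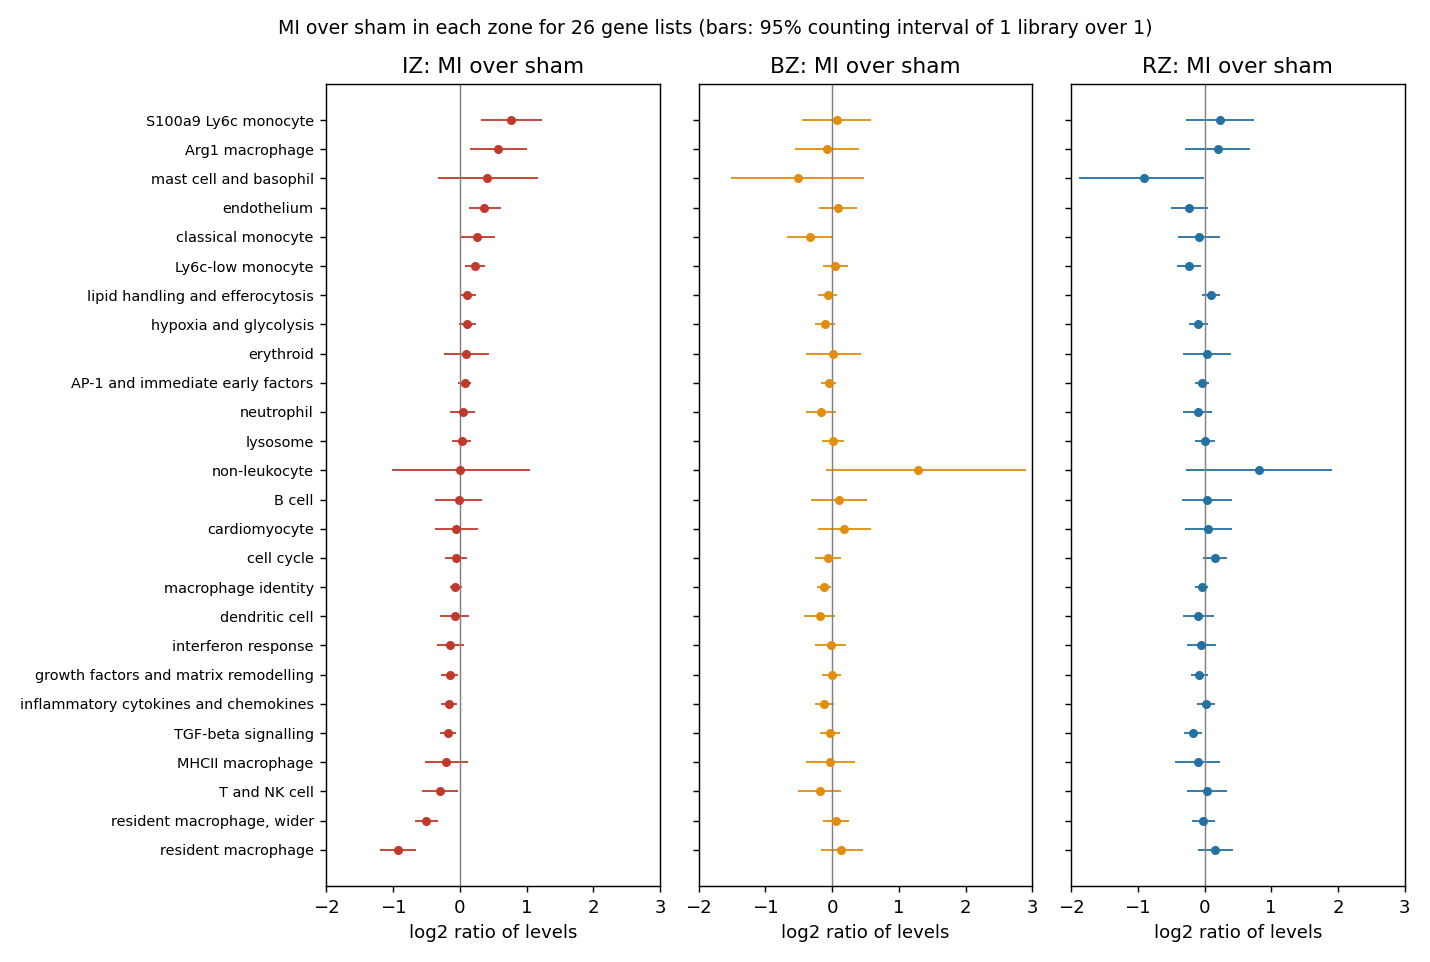
Log2 ratio of MI to sham (horizontal axis) for 26 gene lists in each zone, ordered by the ratio in IZ, with bars for the 95% counting interval of 1 library over 1. In IZ the ends of the order are the resident macrophage list at a ratio of 0.528 and the S100a9 list at 1.7, and in BZ and RZ these 2 lists have ratios of 1.1 and 1.05, and 1.12 and 1.18.

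Across the genome, 1 window passed the limma test of MI against sham, and that call rests on a count of 0 in 1 sham library. The limma test over the 3 zones called 0 of 10159 windows (0.0%) and 0 of 12490 regions (0.0%) at an adjusted p under 0.05, with 47 windows and 158 regions at an unadjusted p under 0.05, and limma-trend also called 0, with 5 and 80. By zone it called 0 windows in IZ (0.0%, 197 at an unadjusted p under 0.05 and 25 by limma-trend), 1 in BZ (0.00984%, 85 and 38) and 0 in RZ (0.0%, 62 and 23). The 47 windows over the 3 zones were 0.463% of those tested. That is far below the share of 0.05 that a test with a fitting spread gives where nothing differs. The test was thus cautious, and 0 calls do not show that MI and sham were alike. The BZ window was that of Tab2, an adaptor of cytokine signalling, named after its values were seen. It held 14, 21 and 7 read pairs in MI and 19, 0 and 35 in sham, and the adjusted limma p was 0.000289. MI BZ was 5.38-fold above the level of the 3 counts that a count of 0 allows. That fold leaves out the counting error of the 21 read pairs in MI BZ, so it is not a lower bound. In IZ and RZ the same window was lower in MI, by -0.65 and -1.36 on the log2 scale, and with all read pairs of the window in place of those in regions the call was lost.

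The log2 ratios of the zones had correlations near 0. In BZ and RZ, MI and sham differed by 1 and 1.04 times what counting gives. Values near 0 could thus arise at this depth even where weak responses were shared. They do not show whether the responses were related. Over the 8162 windows the log2 ratio of MI to sham in IZ had a Pearson correlation of -0.0438 with that in BZ and -0.0216 with that in RZ, and BZ and RZ had 0.0378. Over the 1816 windows that averaged 100 read pairs or more, these values were -0.0638, -0.0941 and 0.0894. These are correlations across genes, which share read pairs between neighbours and are not independent. Of the windows, 922 (11.3%) were higher in MI in all 3 zones and 1059 (13.0%) in none. In IZ 369 windows were at least 1.5-fold higher (4.52%) and 358 lower (4.39%), in BZ 376 (4.61%) and 370 (4.53%), and in RZ 296 (3.63%) and 302 (3.7%). The lowest of the 3 MI libraries lay above the highest sham library at 377 windows (4.62%), and the highest MI library lay below the lowest sham library at 412 (5.05%).

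**Figure D5:**
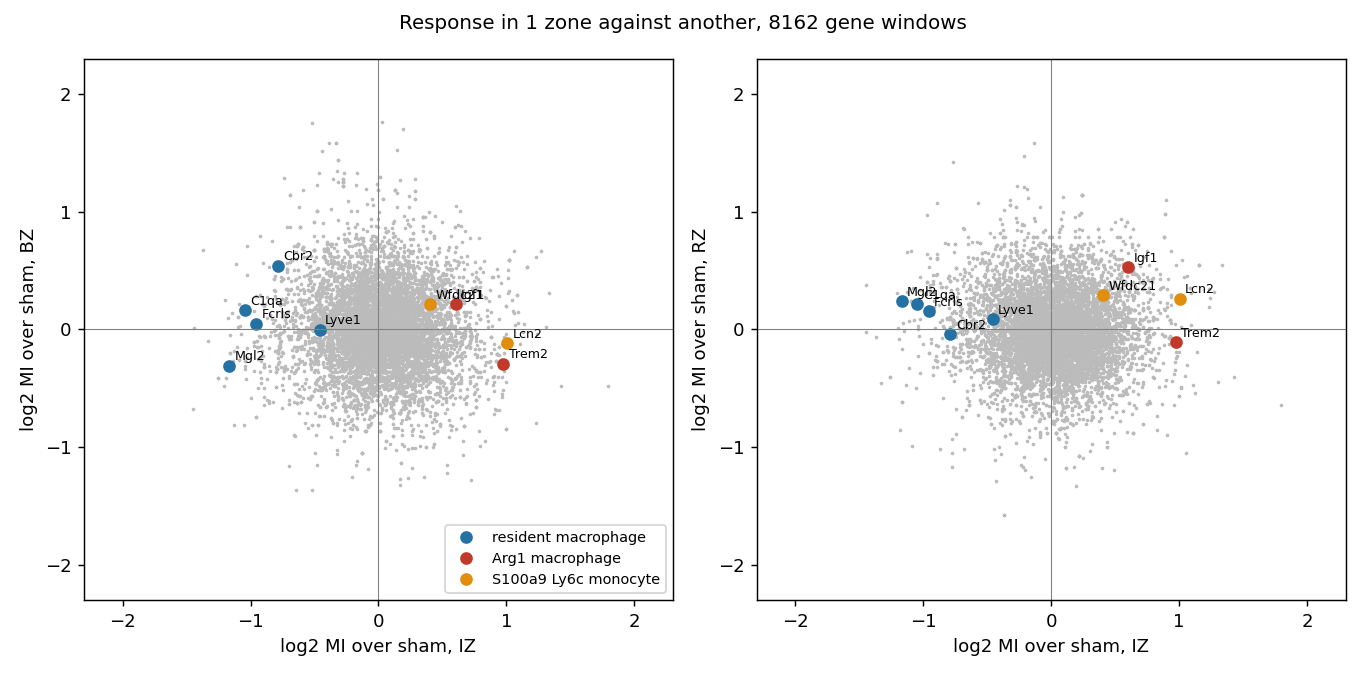
Log2 ratio of MI to sham in IZ (horizontal axes) against that in BZ (left) and RZ (right) for 8162 gene windows (grey), with the study's marker genes coloured by list. The cloud has no slope (r = -0.0438 and -0.0216), and the resident genes lie left of 0, between -0.31 (Mgl2) and 0.54 (Cbr2) in BZ and between -0.04 and 0.24 in RZ.

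No window was at least 1.5-fold higher in MI in all 3 zones (0.0%), and 5 were at least 1.5-fold lower (0.0613%). The 5 lie side by side on chromosome 11 and share their read pairs, so they are 1 observation. They belong to Neurod2, a neuronal transcription factor gene, and to Ppp1r1b, Stard3, Tcap and Pnmt, of which only Neurod2 was named by rule. The Neurod2 window held 30, 27 and 16 read pairs in MI and 41, 33 and 48 in sham, and scaled levels of 38.07, 45.81 and 34.7 CPM against 63.87, 72.91 and 60.24 did not overlap. The log2 ratios were -0.70, -0.64 and -0.74, and limma gave -0.72 over the 3 zones (-1.37 to -0.08, adjusted p = 1).

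Among 5952 regions, 10 were at least 1.5-fold higher in MI in all 3 zones (0.168%) and 7 were lower (0.118%). The first by rank among the higher ones covered the promoter of Ubap1, a gene of endosomal sorting, at chr4:41346501-41350500, with 18, 14 and 17 read pairs in MI and 7, 4 and 13 in sham. The second lay upstream of Retn, which encodes resistin, at chr8:3645501-3652000, with 21, 19 and 8 against 8, 7 and 5. Regions at the promoters of Fnip1 and Denr came next, with summed ratios of 1.97 and 1.93. Fdxr, a mitochondrial ferredoxin reductase gene, had 29, 25 and 21 read pairs at its promoter region in MI and 8, 11 and 18 in sham, a summed ratio of 2.1 (1.4 to 3.21). A region upstream of Mpzl1 followed, with a summed ratio of 1.68.

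The lower regions were led by 1 inside Sec14l1, a lipid transfer protein gene, at chr11:117133001-117140000, with 9, 11 and 3 read pairs in MI and 20, 16 and 19 in sham. A region inside Atp6v0d2, a subunit of the proton pump that acidifies lysosomes, at chr4:19890501-19898500, held 8, 17 and 3 against 22, 21 and 24, a summed ratio of 0.433 (0.268 to 0.683), and limma gave a log2 change of -1.46 with an adjusted p of 1. All regions in the Atp6v0d2 window together held 20, 40 and 17 read pairs against 37, 37 and 61. The region at the start of Tesmin, which also overlaps Cpt1a, at chr19:3384001-3390000, held 18, 9 and 7 against 25, 18 and 21. Regions at Pura, Rnf168 and St3gal6 had summed ratios of 0.436, 0.519 and 0.494. These counts are small, and regions were picked for being past the fold in every zone, so their sizes are descriptions.

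Up to 300 bases around the point with most read pairs are shown for 2 regions of each direction, leaving out the region at Pura, without exon bases, on the plus strand of GRCm38: Ubap1 at chr4:41348847-41348995, Retn at chr8:3646898-3647197, Sec14l1 at chr11:117138251-117138550 and Tesmin at chr19:3388693-3388856. Capitals mark motif matches, searched on both strands. The GATA motif was spelt AGATAA and is found near Retn on the other strand. The C/EBP motif was spelt TTGCNNAA, and the RUNX motif inside Sec14l1 was spelt TGTGGTT. Of the 5952 regions, 6.77%, 8.13% and 5.07% held these letters, and of the promoters 9.99%, 9.56% and 4.4%.
Ubap1 region: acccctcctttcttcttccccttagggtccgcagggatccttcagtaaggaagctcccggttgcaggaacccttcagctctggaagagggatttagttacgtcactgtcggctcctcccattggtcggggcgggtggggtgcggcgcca
Retn region: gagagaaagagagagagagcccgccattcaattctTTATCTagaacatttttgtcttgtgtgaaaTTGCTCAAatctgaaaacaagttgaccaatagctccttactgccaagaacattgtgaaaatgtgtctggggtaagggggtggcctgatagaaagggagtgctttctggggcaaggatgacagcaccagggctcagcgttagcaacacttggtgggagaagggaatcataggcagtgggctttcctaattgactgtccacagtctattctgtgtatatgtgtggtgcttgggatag
Sec14l1 region: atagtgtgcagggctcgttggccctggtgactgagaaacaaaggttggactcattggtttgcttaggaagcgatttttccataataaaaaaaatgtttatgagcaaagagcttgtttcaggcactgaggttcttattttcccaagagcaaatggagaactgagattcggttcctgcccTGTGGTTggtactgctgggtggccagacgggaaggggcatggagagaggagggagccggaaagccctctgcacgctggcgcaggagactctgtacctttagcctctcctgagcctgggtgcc
Tesmin region: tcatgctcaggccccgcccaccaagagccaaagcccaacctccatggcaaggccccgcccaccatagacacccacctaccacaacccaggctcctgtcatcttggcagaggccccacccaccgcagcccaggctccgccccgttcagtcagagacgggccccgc

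A response was called graded where BZ lay between IZ and RZ and these differed by at least 1 log2 unit. With IZ highest there were 114 such windows (1.4%) and with RZ highest 151 (1.85%). Each of the 6 possible orders of the zones, with its first and last zone that far apart, held 114 to 171 windows, so graded orders were no more frequent than the rest. Zfp511, a zinc finger gene, led the first set with 66, 20 and 15 read pairs in MI and 14, 22 and 42 in sham and log2 ratios of 1.80, -0.48 and -0.65. Sgms2, a sphingomyelin synthase gene, followed a like order with 113, 54 and 20 against 36, 41 and 48, and Hpse, which encodes heparanase, with 78, 45 and 16 against 35, 39 and 52. These counts come from libraries of unequal depth, of which MI IZ and sham RZ were the deepest. In CPM, Sgms2 was at 143.4, 91.63 and 43.37 in MI and 56.08, 90.58 and 60.24 in sham.

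Of the windows graded the other way, Il1rl1, the receptor of interleukin 33, held 22, 33 and 32 read pairs in MI and 32, 26 and 19 in sham, with log2 ratios of -0.77, -0.04 and 1.42. Smad1, a transducer of bone morphogenetic protein signals, held 11, 18 and 20 against 28, 23 and 26, with -1.45, -0.68 and 0.38. Selenbp1, Tmod1 and Carmil2 were the others named by rule, and Vmn2r19 and Itprid2 those with IZ highest. By limma 0 windows differed between IZ and RZ within MI (0.0%, 310 at an unadjusted p under 0.05 and 109 by limma-trend), and 0 had a response that differed between IZ and RZ (0.0%, 199 and 27).

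The response at P1 day 3 was also compared with those of P1 hearts at day 7 and of hearts operated on P10 at day 3, each with 12 libraries. Over the 3 zones 0 windows differed from the day 7 response (0.0%, 221 at an unadjusted p under 0.05 and 134 by limma-trend) and 0 from the P10 response (0.0%, 304 and 83). The resident list was lower than at P1 day 7 in 5 of 5 members and higher than at P10 day 3 in 5 of 5, with median limma log2 differences of -0.13 and 0.13 and no member at an unadjusted p under 0.05. Against P10 day 3, the neutrophil list was lower in 5 of 5 tested members, with a median of -0.59 and 2 of 5 at an unadjusted p under 0.05, against 2.99% of all windows. The classical monocyte list was lower in 4 of 5, with a median of -0.59 and 1 of 5 at an unadjusted p under 0.05. Both lists were picked for their size after their values were seen, and no member passed the test after adjustment. Of all 10159 windows, 4977 were lower than at P10 day 3. Other lists leaned the same way, with 13 of 15 inflammatory and 11 of 14 macrophage identity members lower. All 5 tested members of the dendritic cell list and all 4 of the erythroid list were higher.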

How the data were processed

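H3K27ac was profiled by CoBATCH in sorted cardiac CD45+F4/80+ cells. The authors trimmed the reads, aligned them to mm10 with Bowtie2, filtered them by mapping quality, removed duplicates with Picard and kept cells above a read minimum. They deposited 1 list of reads per library, with coordinates and a mapping score for each read. The deposited score was 21 to 44 in these libraries and served only to describe the lists, which name no cell, so cell clusters were not rebuilt and libraries were summed. Of 48 labelled samples, 42 have read lists (48044 to 1008148 read pairs each, 17959096 in all) and 6 were not analysed here.

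The 2 reads of a fragment were joined by name and unique read pairs counted. Regions were 500-base bins at 4 times the mean or more over all 24 groups with equal weight, merged within 1000 bases (median 1500 bases, 88.9 Mb in all). Windows of 21938 protein-coding genes ran from 50 kb before to 30 kb behind the gene body (GRCm38, GENCODE annotation), and read pairs in regions within them were counted. Window and region levels are CPM of all counts over windows or regions, with TMM scaling, so a read pair in overlapping windows counts in each, whereas list levels are CPM of the read pairs in regions and count each read pair once. Log2 ratios of MI to sham used 2 prior read pairs, and descriptions kept windows that averaged 20 read pairs or more over the 6 libraries and regions that averaged 10 or more. Limma and the single genes of the lists used windows that averaged 10 or more over the 42 libraries, and limma used regions that averaged 3 or more. Ratios between libraries have exact 95% counting intervals.

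Tests used limma 3.58.1 with voom weights in R 4.3.3 on all 42 libraries, with a mean for each of 24 groups, the pool of hearts as a random block (correlation 0.107 for windows and 0.0565 for regions), Benjamini-Hochberg adjustment and a threshold of 0.05. The fit assumes that P1 day 3 pools vary like the others. Limma-trend was the alternative. The scripts were tested on simulated data. Counting was done in Python 3.11.15 (pandas 2.3.3, numpy 2.4.6), intervals with scipy 1.17.1 and plots with matplotlib 3.10.9.

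The comparison, the 27 gene lists (256 genes) and the windows named were chosen with earlier results of these data known. Named are all members of the study's lists, up to 4 members of other lists with the highest and lowest mean response, windows past 1.5-fold in all 3 zones, up to 6 regions per direction, and up to 5 graded windows per order. Genes outside this rule are said to be so or stand as examples of their list. Motifs were 15 letter strings. RefSeq promoters were those of GRCm38.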

Additional observations from a re-analysis of the deposited data

How the results depend on the processing

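Alternative settings were tried for 23 main results, and of 111 values 68 stayed and 43 moved. Counts stayed if within 1.5 times, median responses if within 1 SD, and list levels if inside the counting interval of the main ratio. Limma counts that kept their main value of 0 or 1 are among the 68. Other scalings, the filter and prior, leaving out a zone and all read pairs of a window were planned, and the lists with all read pairs or on 1 flow cell were added after the data were seen. Scaling by all deposited read pairs moved the median log2 ratio of windows in RZ from -0.034 to 0.145, so changes there are relative to that shift.

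Of 36 limma counts under alternatives 35 were 0, and the BZ call became 0 with all read pairs. The fit with a replicate block for the replicate number also called 0 windows and 0 regions. At P1 day 3 each group has 1 replicate, so no pairing of replicates could be checked.

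Windows higher in all 3 zones numbered 2 with scaling by all deposited read pairs, 4 at a mean of at least 10, 4 with all read pairs of the window and 21 to 24 without 1 zone. Windows lower numbered 0 with 8 prior read pairs, 0 with all deposited read pairs, 0 at a mean of at least 50, 13 with all read pairs of the window and 18 to 30 without 1 zone. Regions higher numbered 18 and 3 with 0.5 and 8 prior read pairs, 16 with all deposited read pairs, 52 and 3 at a mean of at least 5 and 20, and 59 to 81 without 1 zone. Regions lower numbered 12 and 1 with 0.5 and 8 prior read pairs, 29 and 1 at a mean of at least 5 and 20, and 55 to 94 without 1 zone. Windows graded with IZ highest numbered 63 with 8 prior read pairs, 30 at a mean of at least 50, 268 with all read pairs of the window and 50 with all deposited read pairs. Those with RZ highest numbered 85, 19 and 329 with 8 prior read pairs, a mean of at least 50 and all deposited read pairs. The causes were not tested beyond the features that each setting adds or removes.

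On single flow cells the IZ ratio of the resident list was 0.203 on flow cell 1, 0.687 on flow cell 3 and 0.433 on flow cell 4, that of the Arg1 list 3.84 and of the S100a9 list 0.877 on flow cell 4, and that of the classical monocyte list 0.778 on flow cell 1 and 1.53 on flow cell 3. Of 194 named windows, 163 kept their sign with all read pairs, 162 with all deposited read pairs, and 151, 158 and 165 without IZ, BZ or RZ. The limma interval of C1qa in IZ, -2.03 to -0.12 on the log2 scale, shows the precision that this depth and 1 pool per surgery allow.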

Other observations

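Lists of macrophage functions not described so far differed less than the resident list. Their ratios are those in regions, and ratios over whole windows, as a share of all read pairs of a library, are added where an interval then changed sides of 1. The lipid handling and efferocytosis list had ratios of MI to sham of 1.08 (0.997 to 1.18) in IZ, 0.953 in BZ and 1.07 in RZ, or 1.09 (1.02 to 1.16) in IZ and 1.1 (1.03 to 1.19) in RZ over whole windows, and 4 of its 12 tested members were higher in all 3 zones, against 11.8% of all windows tested. By the mean of the zones 5 members were higher and 7 lower, with a median log2 ratio of -0.04. In all 3 zones 1 member was lower, against 12.4% of all windows tested. The members higher in every zone were Axl, a receptor for apoptotic cells, with log2 ratios of 0.27, 0.09 and 0.28, Lgals3, which encodes galectin-3, with 0.54, 0.01 and 0.28, Cd9, a tetraspanin gene, with 0.44, 0.03 and 0.38, and Nceh1, a cholesterol ester hydrolase gene, with 0.28, 0.10 and 0.31. The TGF-beta signalling list had ratios of 0.886 (0.813 to 0.965), 0.974 and 0.887 (0.808 to 0.974). Over whole windows its IZ ratio was 0.949 (0.885 to 1.02) and its RZ ratio turned to 1.02 (0.94 to 1.1), and pools of the same group differed by more than its IZ ratio in regions in 4 of 18 cases. Over the 3 zones 8 of its 10 members were lower and 2 higher. Among them Tgfbr1, a receptor gene, had -0.05, -0.25 and -0.48, while Smad7, an inhibitor of the pathway, had 0.15, 0.48 and 0.28. None of the members of these lists passed the limma test.

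The lysosome list was level, with ratios of 1.02, 1.01 and 1.01, and its members went apart. Atp6v0d2 had log2 ratios of -1.09, -0.26 and -0.99 and Ctsl, the cathepsin L gene, had 0.43, 0.52 and 0.66. The inflammatory cytokine and chemokine list had ratios of 0.893 (0.822 to 0.97), 0.921 and 1.02, and over whole windows 0.965 (0.899 to 1.04) in IZ. Il1b, which encodes interleukin 1 beta, was lower in every zone, by -0.43, -0.49 and -0.23, and Il1rn, the antagonist of its receptor, held 30, 16 and 4 read pairs in MI and 10, 14 and 8 in sham. The interferon, AP-1 and hypoxia lists had IZ ratios of 0.905, 1.05 and 1.08, all with intervals that included 1, whereas over whole windows AP-1 had 1.11 (1.05 to 1.18) and hypoxia 1.14 (1.06 to 1.22). The cell cycle list had 0.96, 0.953 and 1.11. The growth factor and matrix list had IZ, BZ and RZ ratios of 0.899 (0.825 to 0.98), 0.996 and 0.948 and over whole windows 0.947 (0.882 to 1.02) in IZ, the dendritic cell list 0.948, 0.878 and 0.938, the B cell list 0.986, 1.07 and 1.03 and the erythroid list 1.07, 1.01 and 1.03. The mast cell and basophil list, with 14 to 46 read pairs a library, had 1.33, 0.698 and 0.535, or 1.45 (1.14 to 1.86) in IZ and 0.86 (0.664 to 1.1) in RZ over whole windows, and the non-leukocyte list, with 6 to 20, had 1, 2.45 and 1.76 with wide intervals. Over its whole windows the non-leukocyte list held 272, 144 and 116 read pairs in MI and 155, 101 and 184 in sham, an IZ ratio of 1.39 (1.14 to 1.71).

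Of the 5952 regions described, 59.8% lay at promoters, and the 10 regions higher in all 3 zones had a median GC content of 65.2% against 57.3% for all, with 51.7% for the 7 lower ones. The 2 sets are small and overlapped, with 46.0% to 69.0% in the higher and 42.3% to 70.7% in the lower regions. Promoters made up 7 of the higher and 3 of the lower ones.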
